A study of Mus musculus with 18 samples.

Results

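Chromatin immunoprecipitation sequencing (ChIP-seq) peaks of domain-swapped Foxa proteins were examined at 4 windows of the mouse genome that hold genes of plasma proteins made by the liver: Alb and Afp together, Apoa1 and Apoa4 together, Ttr, and Serpina1a with its gene cluster. The windows were set by position on the genome build mm9, and the loci were chosen with earlier results of these data known. They were chromosome 5 from 90850000 to 91050000, chromosome 9 from 46000000 to 46110000, chromosome 18 from 20780000 to 20880000 and chromosome 12 from 104900000 to 105200000. Every peak that overlapped a window by at least 1 bp was a member. Of the 60003 peaks in the lists of 8 Foxa constructs, 158 were members (0.263%), and they merged into 40 of 24999 regions (0.16%). The list made with an Hnf4alpha antibody added 2 peaks.

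The cells were induced hepatocyte-like (iHep) cells, that is, C57BL/6 mouse embryonic fibroblasts from embryos of 13.5 days post coitum turned toward a liver-cell state by infection with Hnf4alpha and a Foxa construct. All groups thus carried Hnf4alpha, and none of the 8 constructs was an unmodified Foxa protein. In Foxa1-N3 and Foxa2-N3 the N-terminal domain is that of Foxa3 and the rest Foxa1 or Foxa2, and Foxa3-C1 and Foxa3-C2 are Foxa3 with the C-terminal domain of Foxa1 or of Foxa2. These 4 carry the N-terminal domain of Foxa3 and were mapped with a Foxa3 antibody. Foxa1-C3 and Foxa2-C3 carry the C-terminal domain of Foxa3, and Foxa3-N1 and Foxa3-N2 are Foxa3 with the N-terminal domain of Foxa1 or of Foxa2. In this second set of 4 the antibody was Foxa1 (Foxa1-C3, Foxa3-N1) or Foxa2 (Foxa2-C3, Foxa3-N2), so terminal layout and antibody cannot be told apart. Each construct had 1 ChIP library and no replicate. The ninth list, titled 4a3_DA1, was made with an Hnf4alpha antibody; its other labels conflict, naming a Foxa3 construct in the title and Foxa1 with Hnf4alpha as the infection, and it is given apart. Lists held 956 peaks in Foxa1-N3, 3594 in Foxa3-C2, 4807 in Foxa1-C3, 5230 in Foxa2-N3, 7533 in Foxa3-C1, 7625 in Foxa3-N1, 13715 in Foxa2-C3, 16543 in Foxa3-N2 and 698 with the Hnf4alpha antibody. Sequencing depth is unknown, because the lists hold peaks and not reads.

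Foxa proteins are forkhead transcription factors that can bind their sites in closed chromatin, and in liver development they occupy genes of the hepatocyte before these are switched on. Hnf4alpha is a nuclear receptor that works with them at many liver genes. Albumin is the main protein of adult plasma and alpha-fetoprotein (Afp) its fetal relative, encoded next to it. Apoa1 encodes the main protein of high-density lipoprotein, and Apoa4 a lipoprotein component made by intestine and liver. Transthyretin (Ttr) carries thyroxine and, through a binding protein, retinol. Serpina1a is one of several mouse copies of alpha-1-antitrypsin, an inhibitor of serine proteases in plasma.

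Forkhead proteins favour the word TGTTTGC or its close variants, and the promoters of these genes are shown because that word recurred in them. The 250 bases before the gene start, from RefSeq on GRCm38.p6, were searched on both strands for this word. They were also searched for the variant TGTTTAC, which differs from it in a single letter. The remaining words of the search were TATTTGC, which has another base next to its first letter, and the variant that carries both of these changes, TATTTAC. For each position and strand only 1 of the 4 words can match. A RefSeq promoter was found for 5 of the 6 named genes; Ttr is named only. TGTTTGC occurred in 4 of the 5, against 4.3% of 32851 promoters of the same length. Any of the 4 words occurred in 11.9% of those promoters. Because the word was picked for its recurrence here, these shares are a description and no test. Matches to any of the 4 words are in capitals, and each sequence reads 5′ to 3′ along the gene's own strand (plus for Alb, Afp, Apoa1 and Apoa4, minus for Serpina1a):
Alb: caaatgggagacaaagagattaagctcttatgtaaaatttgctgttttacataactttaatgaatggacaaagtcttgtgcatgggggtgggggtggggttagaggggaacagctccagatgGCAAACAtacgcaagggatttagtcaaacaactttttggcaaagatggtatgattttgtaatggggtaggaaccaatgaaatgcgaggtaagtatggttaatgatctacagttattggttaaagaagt
Afp: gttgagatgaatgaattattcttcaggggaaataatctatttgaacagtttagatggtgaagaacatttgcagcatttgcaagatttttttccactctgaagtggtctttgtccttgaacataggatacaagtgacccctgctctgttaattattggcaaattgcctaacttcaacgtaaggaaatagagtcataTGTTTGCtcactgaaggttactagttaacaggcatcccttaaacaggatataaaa
Apoa1: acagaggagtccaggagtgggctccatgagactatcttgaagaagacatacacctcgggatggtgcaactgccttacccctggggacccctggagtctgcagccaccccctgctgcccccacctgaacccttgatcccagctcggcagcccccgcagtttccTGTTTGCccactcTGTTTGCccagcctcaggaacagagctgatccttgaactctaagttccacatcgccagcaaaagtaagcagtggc
Apoa4: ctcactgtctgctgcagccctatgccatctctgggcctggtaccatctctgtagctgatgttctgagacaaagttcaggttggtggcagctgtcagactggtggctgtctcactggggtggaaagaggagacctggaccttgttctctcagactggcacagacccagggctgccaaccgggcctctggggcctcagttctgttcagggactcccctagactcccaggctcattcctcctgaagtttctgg
Serpina1a: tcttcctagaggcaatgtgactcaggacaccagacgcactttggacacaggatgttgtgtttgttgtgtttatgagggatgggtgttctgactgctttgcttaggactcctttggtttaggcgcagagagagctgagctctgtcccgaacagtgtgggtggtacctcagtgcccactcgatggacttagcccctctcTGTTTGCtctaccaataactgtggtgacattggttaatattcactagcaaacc

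The match began 128 bases before the start in Alb, on the reverse strand, and 55 bases before it in Afp. Apoa1 had the word at 88 and again at 75 bases before its start, while Apoa4 had no match to any of the 4 words. In Serpina1a it began 53 bases before the start, and the promoters of its 4 copies Serpina1b, Serpina1c, Serpina1d and Serpina1e held the word as well, at 58, 59, 48 and 110 bases. None of the variants was found in the 5 promoters; TGTTTAC occurred in 3.17% of all promoters, TATTTGC in 2.5% of them and TATTTAC in 2.73%. A match of letters is a description and not a binding site. The peaks are on mm9 and the promoters on another build, so whether a peak covered any of these words was not analysed here.

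The Alb and Afp window was the most densely covered. It held 89 peaks of the 8 lists in 20 regions, which are numbered along the chromosome. Tiles of the same length, 200 kb, laid end to end over the genome had a median of 1 peak, and the fullest of 13169 tiles held 88. Tiles over the window itself were not left out, so the fullest tile may be this locus and is not known to be another one. The window was drawn around the genes whereas tiles fall on a fixed grid and can split a cluster. These figures therefore describe density and are no test. Foxa1-N3 had 2 peaks in the window, in a list that placed a peak in 6.33% of 200 kb tiles. Foxa1-C3 had 7 (23.6% of tiles in that list), and Foxa3-C2 had 8 (18.5%). Foxa3-C1 had 12 (30.7%), Foxa2-C3 and Foxa3-N1 had 14 each (40.6% and 31.6%), and Foxa2-N3 and Foxa3-N2 had 16 each (23.8% and 44.1%). All 8 constructs therefore reached the locus, as they did in 4.43% of tiles of that length. The short Foxa1-N3 list aside, the number of peaks here did not follow list length closely, since Foxa2-N3 with 5230 peaks had as many as Foxa3-N2 with 16543.

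Of these regions, 16 lay within 63.9 kb at the left of the window and held 78 of the 89 peaks, followed by 65.99 kb without a peak. The regions in the window were a median of 4.55 kb apart, against 26.75 kb for all regions of the genome. Alb/Afp region 16 (90917202 to 90917963) had a peak in every list. It ranked 202 of 13715 in Foxa2-C3, 246 of 16543 in Foxa3-N2, 490 of 7625 in Foxa3-N1 and 938 of 3594 in Foxa3-C2. It ranked 1085 of 5230 in Foxa2-N3, 1461 of 4807 in Foxa1-C3, 1609 of 7533 in Foxa3-C1 and 860 of 956 in Foxa1-N3. It was the strongest peak of the locus in both Foxa2 antibody lists, at 1.47% and 1.49% of the way down, and near the end of the Foxa1-N3 list, at 90%. Ranks are by the authors' score within a list, and ranks from lists of different length do not measure a change.

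Alb/Afp region 3 (90861849 to 90862909) was the other region present in every list. It ranked 386 in Foxa3-C1 and 554 in Foxa1-N3, where it was the strongest peak of the locus in each. Ranks elsewhere were 912 in Foxa2-C3, 1558 in Foxa3-N2, 1625 in Foxa2-N3, 1657 in Foxa1-C3, 2372 in Foxa3-C2 and 2551 in Foxa3-N1. The Foxa3-N2 peak spanned 1010 bp and the Foxa1-N3 peak 303 bp, the widest range among the regions of this locus found in 7 or 8 lists.

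Foxa1-N3 alone lacked a peak in Alb/Afp region 2 (90859951 to 90860704), region 8 (90878903 to 90879556) and region 15 (90914327 to 90915099). Region 2 stood in the first 33.1% of each list that had it, with rank 343 for Foxa2-N3, 321 for Foxa3-C2, 398 for Foxa3-N1, 819 for Foxa3-C1, 1018 for Foxa2-C3, 1589 for Foxa1-C3 and 2174 for Foxa3-N2. It was the strongest peak of the locus in Foxa2-N3. Region 8 ranked from 610 in Foxa2-N3 to 3154 in Foxa2-C3, with 691 in Foxa3-N2. Region 15 ranked from 1096 in Foxa3-N1 to 3799 in Foxa2-N3, and with rank 1322 it was the strongest peak of the locus in Foxa1-C3.

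Farther from the cluster, Alb/Afp region 19 (91032206 to 91032782) was in 5 lists, 4 of them from proteins whose DNA-binding domain is that of Foxa3. All 4 constructs with that domain had a peak there, ranking 210 of 3594 in Foxa3-C2, 288 of 7625 in Foxa3-N1, 2140 of 16543 in Foxa3-N2 and 2350 of 7533 in Foxa3-C1. Of the 4 constructs with the domain of Foxa1 or Foxa2, only Foxa2-N3 had one, at rank 4174 of 5230. It was the strongest peak of the locus in both Foxa3-C2 and Foxa3-N1. Foxa1-N3, Foxa1-C3 and Foxa2-C3 had no peak in region 19. Of the 23 regions found in at least 4 lists, Foxa1-N3 lacked 17, Foxa1-C3 lacked 15 and Foxa2-C3 lacked 6. Why these constructs lacked region 19 was not tested. The exact permutation test by DNA-binding domain gave an unadjusted p of 0.143 for region 19, the smallest that a region in 5 lists can have. Region 18 (90989681 to 90990213) was found in 4 lists and ranked 500 in Foxa3-N1, 2228 in Foxa2-N3, 8416 in Foxa3-N2 and 11706 in Foxa2-C3.

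The remaining widely shared regions of the locus were absent from Foxa1-N3 in each case. Regions 1 (90854048 to 90854580) and 10 (90893233 to 90894367) were in the 6 lists other than Foxa1-N3 and Foxa1-C3. Region 4 (90868040 to 90868696) was in 6 lists, and regions 6 (90871281 to 90871929), 7 (90876481 to 90877082) and 14 (90912867 to 90913417) were in 5. Foxa3-C2 also lacked regions 4, 6, 7 and 14, Foxa1-C3 regions 6 and 14, and Foxa2-N3 region 7. Region 4 ranked from 681 in Foxa2-N3 to 3738 in Foxa3-C1. Ranks ran from 3006 to 7811 in region 1, 2470 to 6408 in region 6 and 1769 to 6811 in region 7. They ran from 958 to 12168 in region 10 and 3265 to 5672 in region 14. Region 10 reached 1135 bp in Foxa2-N3, against 293 bp in Foxa3-C2. The region before it, region 9 (90889656 to 90890533), was a peak of 878 bp found in Foxa2-N3 alone, at rank 1373. Regions 12 and 13, each in Foxa2-N3 alone as well, ranked 5176 and 4678 of 5230.

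**Figure D1:**
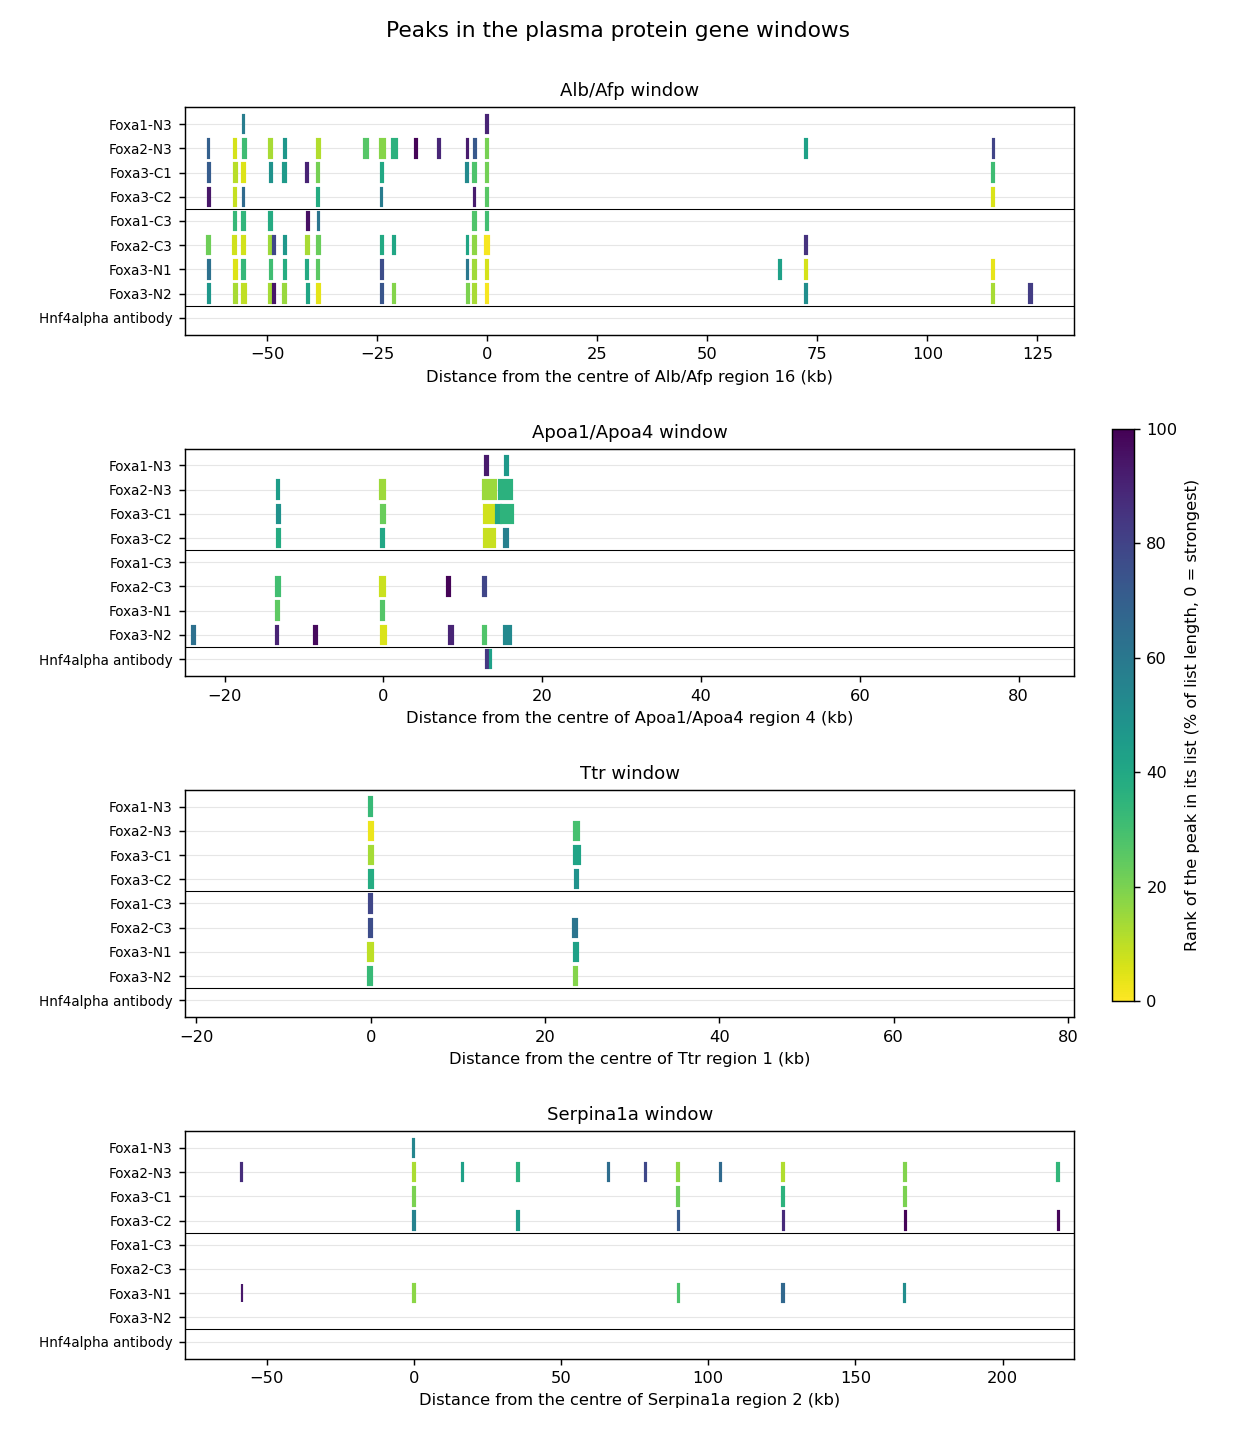
Each bar is a peak at its extent in kb from the centre of a region named under the panel, with 1 row per list and 1 panel per window; colour gives the rank of the peak in its own list as a percent of list length, and black lines part the 4 constructs with the Foxa3 N-terminal domain, the 4 with the Foxa3 C-terminal domain and the Hnf4alpha antibody list. The Alb/Afp window holds 89 peaks of the 8 constructs, and the Serpina1a window holds none of Foxa1-C3, Foxa2-C3 and Foxa3-N2.

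At Apoa1 and Apoa4, 7 of the 8 constructs had at least 1 peak, as in 6.57% of 110 kb tiles. Foxa1-C3 had none (14.8% of 110 kb tiles held a peak in that list), and its nearest peaks lay 104.7 kb before and 2180.1 kb after the window. Foxa1-N3 and Foxa3-N1 had 2 peaks each (3.66% and 20.9% of tiles). Foxa2-N3, Foxa2-C3 and Foxa3-C2 had 4 each (15.2%, 29.0% and 11.5%), Foxa3-C1 had 5 (20.3%) and Foxa3-N2 had 7 (32.3%). The 28 peaks made 7 regions, which together spanned 40.5 kb, and 0.459% of tiles held as many peaks.

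Apoa1/Apoa4 region 6 (46036463 to 46038085) was covered broadly by the constructs with the Foxa3 N-terminal domain. The peak was 1548 bp wide in Foxa2-N3, 1456 bp in Foxa3-C1 and 1431 bp in Foxa3-C2, while Foxa1-N3, whose list has a median width of 307 bp, had 320 bp. On the other side it was 406 bp wide in Foxa2-C3 and 422 bp in Foxa3-N2, both at the left edge of the region, and Foxa1-C3 and Foxa3-N1 had none. It ranked 297 of 3594 in Foxa3-C2, 550 of 7533 in Foxa3-C1, 788 of 5230 in Foxa2-N3 and 892 of 956 in Foxa1-N3. In Foxa3-N2 it ranked 4573 of 16543 and in Foxa2-C3 10899 of 13715. Peaks wider than 1000 bp made up 0.421% of the Foxa2-N3 list, 1.31% of Foxa3-C1 and 0.417% of Foxa3-C2.

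Apoa1/Apoa4 region 7 (46038174 to 46040310) began 0.09 kb farther on. Foxa2-N3 covered it with a peak of 1745 bp, the widest of all 158, and Foxa3-C1 with peaks of 580 and 1500 bp. Foxa3-N2 had 963 bp, Foxa3-C2 473 bp and Foxa1-N3 274 bp, where it ranked 442 and was the strongest peak of the locus. Foxa1-C3, Foxa2-C3 and Foxa3-N1 had no peak there. The 2 Foxa3-C1 peaks did not overlap, and the Foxa2-N3 peak joined them into 1 region. The peaks of Foxa3-N2, Foxa3-C2 and Foxa1-N3 began at 46039131 or later, beyond the first Foxa3-C1 peak, which ended at 46038753. The positions of the gene starts were not placed on this build, so the regions are not assigned to Apoa1, Apoa4 or the genes Apoc3 and Apoa5 that lie beside them in the RefSeq annotation of GRCm38.

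Among the 4 loci, the Hnf4alpha antibody list had peaks at this one only. Both of its peaks within the 4 windows lay in Apoa1/Apoa4 region 6, from 46036894 to 46037191 (298 bp, rank 584 of 698) and from 46037340 to 46037476 (137 bp, rank 302). That list placed a peak in 1.65% of 110 kb tiles. It did so in 2.89%, 1.5% and 4.23% of tiles of the Alb/Afp, Ttr and Serpina1a window lengths, so most windows of those lengths hold none. The peaks of Foxa1-N3, Foxa2-N3, Foxa2-C3, Foxa3-C1 and Foxa3-C2 in this region met at least 1 of them, 5 of the 158 member peaks. Those of Foxa1-N3 and Foxa2-C3, ending at 46037078 and 46036909, met the first only. The Foxa3-N2 peak ended at 46036884, just before both, so it differed from the Foxa2-C3 peak by a small shift of the edge. In whole lists, 0.941% of Foxa1-N3, 1.19% of Foxa2-N3, 2.19% of Foxa3-C1 and 2.53% of Foxa3-C2 peaks met an Hnf4alpha antibody peak, against 0.208% of Foxa1-C3, 0.372% of Foxa2-C3, 0.328% of Foxa3-N1 and 0.586% of Foxa3-N2.

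**Figure D2:**
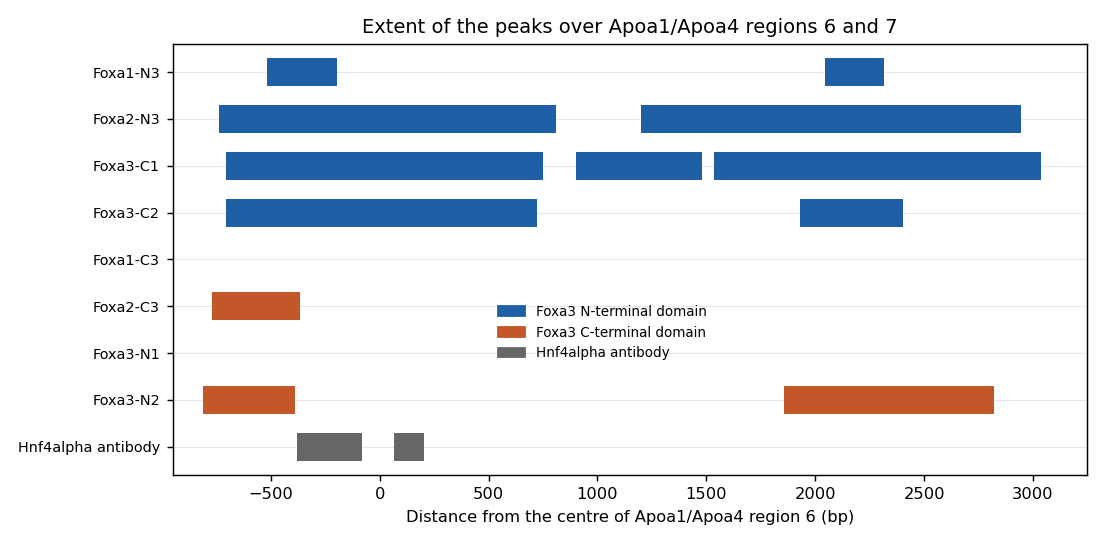
Bars give the extent of each peak in bp from the centre of Apoa1/Apoa4 region 6, with 1 row per list; blue rows are constructs with the Foxa3 N-terminal domain, orange rows those with the Foxa3 C-terminal domain and grey the Hnf4alpha antibody list. In region 6, Foxa2-N3, Foxa3-C1 and Foxa3-C2 have peaks of 1431 to 1548 bp, and Foxa2-C3 and Foxa3-N2 have peaks of 406 and 422 bp.

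Apoa1/Apoa4 region 4 (46023576 to 46024344) and region 2 (46010434 to 46010917) were in the same 6 lists, those other than Foxa1-N3 and Foxa1-C3. Region 4 was the strongest peak of the locus in Foxa2-N3 (rank 765), Foxa3-N2 (rank 916) and Foxa2-C3 (rank 1077), and it ranked 1451 in Foxa3-C2, 1721 in Foxa3-C1 and 2041 in Foxa3-N1. Unlike region 6, it was the strongest peak of the locus in lists on both sides of the terminal layout. In Foxa3-C2 it stood 40.4% of the way down. Region 2 ranked from 1400 in Foxa3-C2 to 14931 in Foxa3-N2 and was the strongest peak of the locus in Foxa3-N1, at rank 1897.

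All 8 constructs had a peak in the Ttr window, as in 2.16% of 100 kb tiles. Only 2 regions lay there. Foxa1-N3 had 1 peak (3.34% of 100 kb tiles held a peak in that list) and so did Foxa1-C3 (13.8%). The other constructs had 2 each: Foxa2-N3 (14.2%), Foxa2-C3 (27.3%), Foxa3-N1 (19.5%), Foxa3-N2 (30.4%), Foxa3-C1 (18.9%) and Foxa3-C2 (10.5%). The 14 peaks were no rare density, since 3.7% of tiles held as many.

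Ttr region 1 (20800004 to 20800536) was present in every list, and the midpoints of its peaks lay within 92.5 bp of each other (SD 26.6 bp over the 8 lists). It ranked 160 of 5230 in Foxa2-N3, 764 of 7625 in Foxa3-N1, 1013 of 7533 in Foxa3-C1, 312 of 956 in Foxa1-N3 and 1375 of 3594 in Foxa3-C2. It ranked 5432 of 16543 in Foxa3-N2, 10552 of 13715 in Foxa2-C3 and 3796 of 4807 in Foxa1-C3. The peak thus stood in the first 38.3% of 6 lists, and 79% and 76.9% of the way down the lists of Foxa1-C3 and Foxa2-C3, the constructs that combine the Foxa1 or Foxa2 DNA-binding domain with the Foxa3 C-terminal domain. In Foxa2-N3 and Foxa1-N3 it was the strongest of all their peaks in the 4 windows. Ttr region 2 (20823484 to 20824260) was in the 6 lists other than Foxa1-N3 and Foxa1-C3, with ranks from 1530 in Foxa2-N3 to 8442 in Foxa2-C3; it ranked above region 1 in Foxa2-C3 and in Foxa3-N2 (3041).

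The Serpina1a window set the constructs apart. Foxa2-N3 had 11 peaks there and a peak in each of its 11 regions, while the longest lists, Foxa3-N2 and Foxa2-C3, had none, and neither had Foxa1-C3. In those lists 52.3%, 49.4% and 31.3% of 300 kb tiles held a peak. Foxa3-C2 had 6 peaks (25.2% of tiles), Foxa3-N1 had 5 (40.5%), Foxa3-C1 had 4 (39.4%) and Foxa1-N3 had 1 (9.13%). For Foxa2-N3 31.4% of tiles held any peak and 0.0228% held 11 or more. That 5 constructs reached a window of this length was itself common, since 31.0% of tiles had a peak in at least 5 lists.

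The absence went beyond the window on both sides, and farther on the left than on the right. Both Foxa2 antibody lists, Foxa3-N2 and Foxa2-C3, were free of peaks from 104199613 to 105227381, a stretch of 1028 kb. Of 20915 stretches without a peak in either list, 2.03% were at least that long. This stretch held 12 Foxa2-N3 peaks, 7 of Foxa3-C2, 6 of Foxa3-N1, 5 of Foxa3-C1, 1 of Foxa1-N3 and 0 of Foxa1-C3. No other stretch, including those at least as long, held more than 5 Foxa2-N3 peaks. Of all stretches 93.2% held none, but their median length was 29.4 kb, so this is not the share for stretches of like length. On the right the nearest peaks were 27.4 kb away in Foxa2-C3 and 40.8 kb away in Foxa3-N2 and Foxa1-C3, so with the window widened by 50 kb every construct had a peak in it. This stretch was examined after its values were seen.

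Serpina1a region 2 (104976247 to 104976967) was the most shared, with a peak in 5 lists. It ranked 652 of 5230 in Foxa2-N3, 1325 of 7625 in Foxa3-N1, 1524 of 7533 in Foxa3-C1, 2007 of 3594 in Foxa3-C2 and 517 of 956 in Foxa1-N3. Regions 7 (105066062 to 105066806), 9 (105101527 to 105102331) and 10 (105142991 to 105143785) each had a peak in Foxa2-N3, Foxa3-N1, Foxa3-C1 and Foxa3-C2. Foxa2-N3 ranked them 867, 625 and 983, Foxa3-C1 1679, 2700 and 1505, Foxa3-N1 2176, 5068 and 3924, and Foxa3-C2 2571, 3171 and 3567. Region 9, at 805 bp in Foxa2-N3, was its strongest and widest peak of the locus, while Foxa3-C2 was strongest at region 4 (105011735 to 105012283, rank 1604), shared with Foxa2-N3 alone. The other 7 regions were in 1 or 2 lists, always including Foxa2-N3. Serpina1a belongs to a family of near-identical gene copies. The sources used here do not say how reads matching several copies were treated, and the part this had in the counts was not tested.

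**Figure D3:**
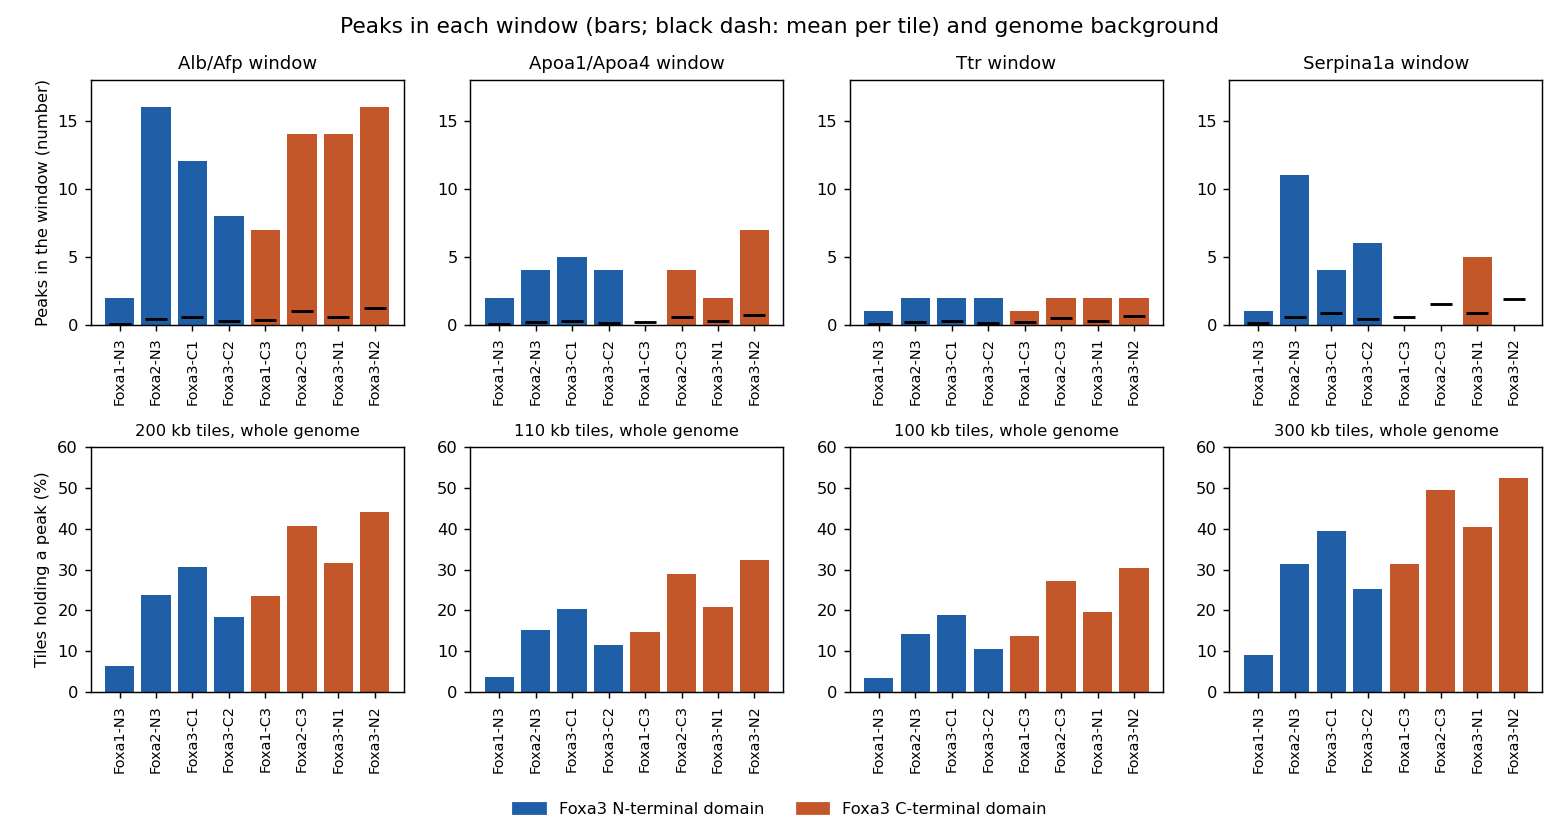
The upper row gives the number of peaks of each construct in each window (bars) and the mean number per genome tile of the same length (black dashes); the lower row gives the percent of tiles that hold a peak in that list, with blue for the Foxa3 N-terminal domain and orange for the Foxa3 C-terminal domain. In the Serpina1a window Foxa2-N3 has 11 peaks where Foxa2-C3 and Foxa3-N2 have 0, although 49.4% and 52.3% of 300 kb tiles hold a peak in the latter lists.

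Regions in the windows were shared by more lists than regions in general. A peak in 4 or more of the 8 lists was found in 23 of 40 member regions (57.5%), against 21.6% of all regions, and in 6 or more lists in 13 (32.5%), against 10.2%. Presence in all 8 lists held for 3 member regions (7.5%), against 2.12%, and presence in 1 list for 11 (27.5%), against 47.5%. The median was 4 lists for member regions and 2 for all. By locus the median was 7 lists at Ttr, 5 at Alb/Afp, 5 at Apoa1/Apoa4 and 2 at Serpina1a, the last equal to that of all regions.

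**Figure D4:**
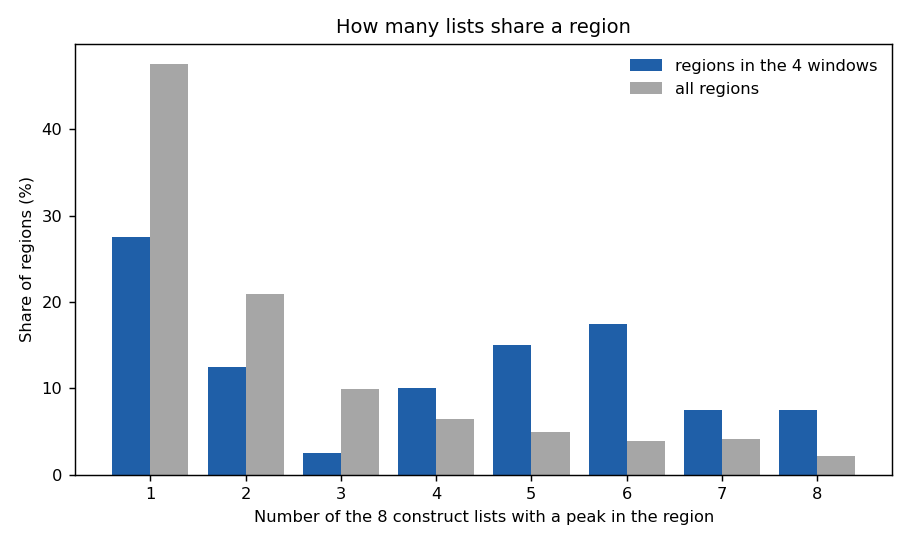
Bars give the share of regions, in percent, by the number of construct lists with a peak in the region, for the 40 regions in the 4 windows (blue) and for all 24999 regions (grey). Regions in a single list make up 27.5% in the windows and 47.5% of all.

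The 23 regions found in at least 4 lists were present most often in Foxa2-N3 and Foxa3-C1 (22 each) and in Foxa3-N1 (21). Foxa3-N2 had 19 of them, Foxa3-C2 18, Foxa2-C3 17, Foxa1-C3 8 and Foxa1-N3 6. The matching shares of each construct over all widely shared regions of the genome were not computed. Regions seen in a single list came from 3 constructs: 7 from Foxa2-N3, 3 from Foxa3-N2 and 1 from Foxa3-N1. Over the genome, 11883 of 24999 regions (47.5%) were in a single list, and the share of each construct among them was not computed. The 24999 regions became 24656 without the Foxa2-N3 list, 19184 without Foxa3-N2 and 23936 without Foxa3-N1. These totals do not count single-list regions, because leaving out a list can also split a region. The 17 less shared regions were in 1 to 3 lists, ranked from 18.6% to 99% of the way down, and were 295 to 990 bp wide.

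No member region separated the constructs by terminal layout, by DNA-binding domain or by partner protein (Foxa1 or Foxa2). A region was called where all 4 lists of a side had a peak and none of the other 4 did. By layout 0 of 40 were called on either side, where 1.22% of all 24999 regions were called for the Foxa3 C-terminal domain and 0.024% for the Foxa3 N-terminal domain. By DNA-binding domain 0 were called, against 0.056% of all regions for Foxa3 and 0% for Foxa1 or Foxa2, and by partner 0, against 0.072% for Foxa2 and 0.004% for Foxa1. At such rates a count of 0 among 40 is close to the background. The exact two-sided permutation test over the 70 splits of the constructs gave no member region a p below 0.143 (0 of 40 below 0.05 unadjusted), and after Benjamini-Hochberg adjustment over all regions the smallest p was 1. The smallest p the design allows is 0.0286, and only a region in exactly 4 lists can reach it or be called. Of the 40 member regions 4 were in exactly 4 lists, against 6.5% of all regions. For the other member regions the number of lists fixed the outcome in advance. After adjustment 0 regions of the genome passed 0.05, and with 1624 of 24999 regions in exactly 4 lists none could have passed. No conclusion on separation is drawn from these tests. With 1 library a construct, the spread within a construct does not enter these p-values.

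Some member regions came within a single list of such a call. Without Foxa3-N1, Serpina1a region 2 was found in all 4 lists with the Foxa3 N-terminal domain and in none of the other 3 (0.1% of all regions). Without Foxa3-N2 the same held for Apoa1/Apoa4 region 7 (0.0417%). Without Foxa3-C1, Alb/Afp region 7 was found only with the Foxa3 C-terminal domain (2.3%). Without Foxa2-N3, Alb/Afp region 19 was found only with the Foxa3 DNA-binding domain (0.13%), as it was when peaks with scores up to 19.2, the pooled median, were left out (0.0606%). Without Foxa3-C2, Alb/Afp region 11 (90896046 to 90897035) was found only with Foxa2 as partner (0.936%). Leaving out a list makes such a call easier, because fewer lists need to be alike.

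When every list was limited to its 956 strongest peaks, Apoa1/Apoa4 region 6 was in all 4 lists with the Foxa3 N-terminal domain and in none of the others, a pattern shared by 0.73% of the 2875 regions then present. The whole Foxa1-N3 list holds 956 peaks, so it was not shortened and kept all of its 6 member peaks. Its peak in region 6 ranked 892, near the end of that list. The 8 lists so limited held 32 member peaks (0.418% of 7648). Foxa2-N3 had 9, Foxa1-N3 6, Foxa3-C2 4 and Foxa3-C1 3, against 5 in Foxa3-N1, 3 in Foxa3-N2, 2 in Foxa2-C3 and 0 in Foxa1-C3. The sides overlapped. In the full lists the share of peaks in the windows was 0.631% in Foxa2-N3, 0.628% in Foxa1-N3, 0.556% in Foxa3-C2 and 0.305% in Foxa3-C1, and 0.302% in Foxa3-N1, 0.166% in Foxa1-C3, 0.151% in Foxa3-N2 and 0.146% in Foxa2-C3. The sides did not overlap in these shares, but Foxa3-C1 and Foxa3-N1 were nearly equal, and the Foxa3 C-terminal side held the 3 longest lists. The windows span 710 kb, or 0.0269% of the length covered by tiles, so each list had 5.41 to 23.4 times as many peaks there as its genome-wide density gives.

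In each of the 4 pairs of constructs with like terminal domains but a different DNA-binding domain, all peaks of one list at these loci met a peak of the other. All 8 member peaks of Foxa1-C3 met a peak of Foxa3-N1, against 66.1% of its whole list, and 8 of 23 (34.8%) met in the reverse direction, against 41.7%. All 20 of Foxa2-C3 met Foxa3-N2 (67.7% of the list), and 20 of 25 (80%) the reverse (56.3%). All 6 of Foxa1-N3 met Foxa3-C1 (90.5%), and 6 of 23 (26.1%) the reverse (11.5%). All 20 of Foxa3-C2 met Foxa2-N3 (66.5%), and 20 of 33 (60.6%) the reverse (45.7%). Such nesting was not particular to these pairs: all 8 regions of Foxa1-C3 also had a peak in Foxa2-C3, Foxa3-N2 and Foxa3-C1, and all 6 regions of Foxa1-N3 also had one in Foxa2-N3 and Foxa3-C2. Foxa3-C1 and Foxa3-C2, which differ in the C-terminal domain, shared 18 peaks. These were 78.3% of the 23 in Foxa3-C1, against 39.4% of its whole list, and 90% of the 20 in Foxa3-C2, close to the 82.9% of its whole list.

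Member peaks tended to stand high in their lists and to be wide. Of the 158, 107 (67.7%) ranked above the median peak of their list, a place that 50% of any list takes by construction. The median rank was 27.6% of the way down in Foxa3-N2, 30.7% in Foxa3-N1, 31.2% in Foxa3-C1, 34.9% in Foxa2-C3, 36.1% in Foxa2-N3 and 36.6% in Foxa1-C3. In Foxa3-C2 and Foxa1-N3, the shortest lists, it was 52.6% and 56%. Widths exceeded the list's median for 108 peaks (68.4%). Median widths of members and of the whole list were 541 and 455 bp in Foxa3-C1, 518.5 and 462 bp in Foxa2-C3, 499 and 413 bp in Foxa3-N1, and 479 and 407 bp in Foxa2-N3. They were 466 and 417 bp in Foxa3-N2, 457.5 and 413 bp in Foxa1-C3, 403.5 and 361 bp in Foxa3-C2, and 322 and 307 bp in Foxa1-N3.

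**Figure D5:**
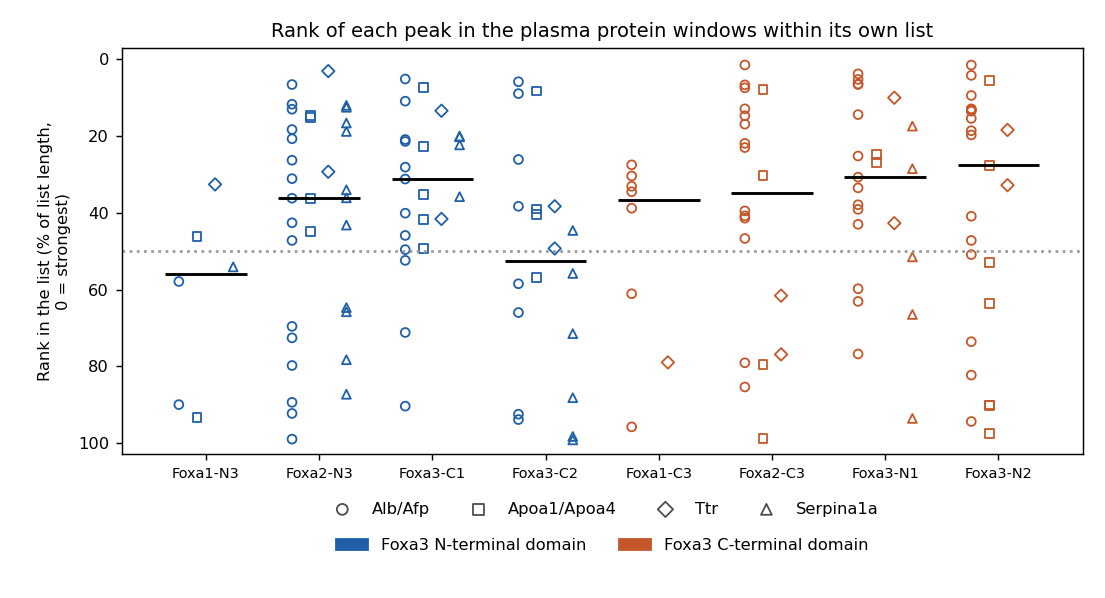
Each symbol is a peak in the windows, placed by its rank within its own list as a percent of list length (0 is the strongest), with symbol shape for the locus and colour for the terminal layout; black lines are medians over the peaks of a list and the dotted line marks 50%. Medians lie between 27.6% and 36.6% in 6 lists and at 52.6% and 56% in Foxa3-C2 and Foxa1-N3.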

How the data were processed

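ChIP libraries of 8 Foxa constructs and 1 Hnf4alpha antibody library were analysed from their deposited peak lists; the 9 inputs were not analysed here. Tools listed in the submitters' processing notes are MACS2 2.1.0, BWA 0.6.2 and bedtools 2.16.2, with mm9 as the build; the sources used here state no settings, filters or use of input. A deposited list gives chromosome, start, end, name and a score, whose kind is not stated. The authors' score was used only to describe, rank or filter peaks within a list, except in 1 alternative. There the same cut of 19.2, the median over the pooled lists, was applied to every list. Starts were converted to count from 1. Peaks of the 8 lists overlapping by 1 bp were merged into regions. Presence was tested by exact permutation over constructs for every region, with Benjamini-Hochberg adjustment over all, and the routine was tested on simulated data. Whole tiles of each window's length were laid over the chromosomes up to the furthest peak. Regions in 4 or more lists, regions with a peak among the 956 strongest of any list, and each library's strongest peak per locus were to be described in full. Some of these are given by position, lists and range of ranks only. Any further region named was picked with its values in view. The members and lists were chosen with earlier results of these data known. Placement relative to genes, and a wider list of plasma protein genes, was not analysed, because the gene table is on GRCm38. Alternatives were a score above 19.2, the 956 strongest peaks, peak midpoints, windows widened by 50 kb or narrowed by 20 kb, merging within 1 kb, shifted tiles and leaving out each construct. Computation used scipy 1.17.1 and pandas 2.3.3 on numpy 2.4.6 (Python 3.11.15), and plots matplotlib 3.10.9.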

Additional observations from a re-analysis of the deposited data

How the results depend on the processing

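The 158 member peaks became 95 with scores above the pooled median and 32 with the 956 strongest peaks of each list, and the 40 regions became 14 with the latter. Constructs reaching Ttr fell from 8 to 4 and 3 under these settings, and those reaching Serpina1a from 5 to 3 and 2. The pooled median is the same cut for every list, although scores may not be comparable between lists, and no Foxa1-N3 member peak scored above it. With windows widened by 50 kb, 8 constructs reached Serpina1a, through peaks beyond its right edge. Regions called by terminal layout rose from 0 to 1 with the 956 strongest peaks, and by DNA-binding domain from 0 to 1 above the pooled median score. Leaving out each construct in turn gave 0 to 1 called regions for each of the 3 factors, because fewer lists had to be alike, 125 to 152 member peaks and 34 to 40 regions. Within 1 kb, 8 member peaks in place of 5 met an Hnf4alpha antibody peak. The other alternatives kept each count within 1.5 times: 115 of 131 values did so. No paired analysis was possible because each construct has 1 library and the labels give no replicate numbers. Depth is unknown, so a missing peak may lie under a list's threshold.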
